A study of Homo sapiens with 9 samples.

Results

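The expression of 43 genes of inflammation was examined in 2 prostate cancer cell lines: 11 chemokines, the interleukin-1 and interleukin-6 families with their receptors, IL32, the colony stimulating factors, members of the tumour necrosis factor (TNF) family, and the subunits, inhibitors and common targets of the transcription factor NF-kB. The genes were chosen by symbol from the 28216 genes of the count table, and all 43 were found there. RNA with poly(A) tails was sequenced from 9 libraries in 3 groups of 3. PC3 cells, labelled WT, were grown in F12K medium with 10% fetal bovine serum (FBS) and had no treatment. LNCaP cells (clone FCG), also labelled WT, spent 24 h in RPMI without phenol red and with 10% charcoal-stripped FBS, and then 48 h with either 10 nM dihydrotestosterone (DHT) or the vehicle, 0.01% ethanol. The labels name the androgen DHT, whereas the study's text names a synthetic androgen, so the 2 LNCaP groups are called androgen-treated and vehicle-treated here. Because the lines were kept in different media, a difference between PC3 and LNCaP cells cannot be told apart from one between media, and no source states whether the 3 libraries of a group came from separate cultures, so p-values measure the spread between these libraries only.

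NF-kB is a family of DNA-binding dimers that rest in the cytoplasm, held there by inhibitor proteins of the IkB family. Signals from the receptors for TNF and interleukin-1 activate a kinase complex that marks IkB for destruction, which frees dimers of RELA and the p50 product of NFKB1. A slower, alternative branch processes the NFKB2 precursor and works through RELB. Freed dimers raise the transcription of chemokines, cytokines and adhesion molecules, and also of their own inhibitors, which closes a feedback loop. PC3 cells make little or no androgen receptor, whereas LNCaP cells have one and respond to androgen.

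The libraries held 17397706 to 25640325 counts on genes, and the vehicle-treated libraries were the shallowest, at 17397706 to 18674795. Levels are given as CPM, counts scaled to a common depth with TMM factors over all 9 libraries, and 3 counts, taken as the limit that a count of 0 allows, stood for 0.118 to 0.165 CPM in a single library. The marker genes went with the labels. In both comparisons 11 of 11 PC3 markers were higher in PC3 cells and 7 of 8 LNCaP markers were lower there, HOXB13 being the other one. KLK2, an androgen-regulated protease, had 0 counts in PC3 cells. The markers were chosen with earlier results of these data known, so they are not an independent test of the labels. The summed level of the 11 PC3 markers in the LNCaP libraries was 0.221% to 0.723% of that in PC3 cells and was highest in androgen-treated replicate 1. Markers of other cell types were higher in PC3 cells than in LNCaP cells. The 4 fibroblast markers summed to 36.8 to 47.9 CPM in PC3 cells and to 12 to 23.9 CPM in LNCaP cells, most of it from COL1A1, and PDGFRA had 128, 160 and 89 counts in PC3 cells and at most 1 in a LNCaP library. The 4 endothelial markers summed to 6.10 to 8.22 CPM in PC3 cells, with KDR at 105, 123 and 77 counts and CDH5 at 0, and to at most 0.157 CPM in LNCaP cells. The 6 white blood cell markers summed to 0.435 to 0.787 CPM in PC3 cells and to 0.0524 to 0.313 CPM in LNCaP cells. Of these, CD3E, MS4A1 and TYROBP were at 0 counts in every library, while PTPRC had 7, 4 and 5 counts and CD14 6, 4 and 7 counts in PC3 cells, against 0 and at most 2 in a LNCaP library. Each library came from a culture of 1 cell line, and the source of these marker counts was not tested. In such bulk samples fewer cells that express a gene and less RNA per cell cannot be told apart.

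**Figure D1:**
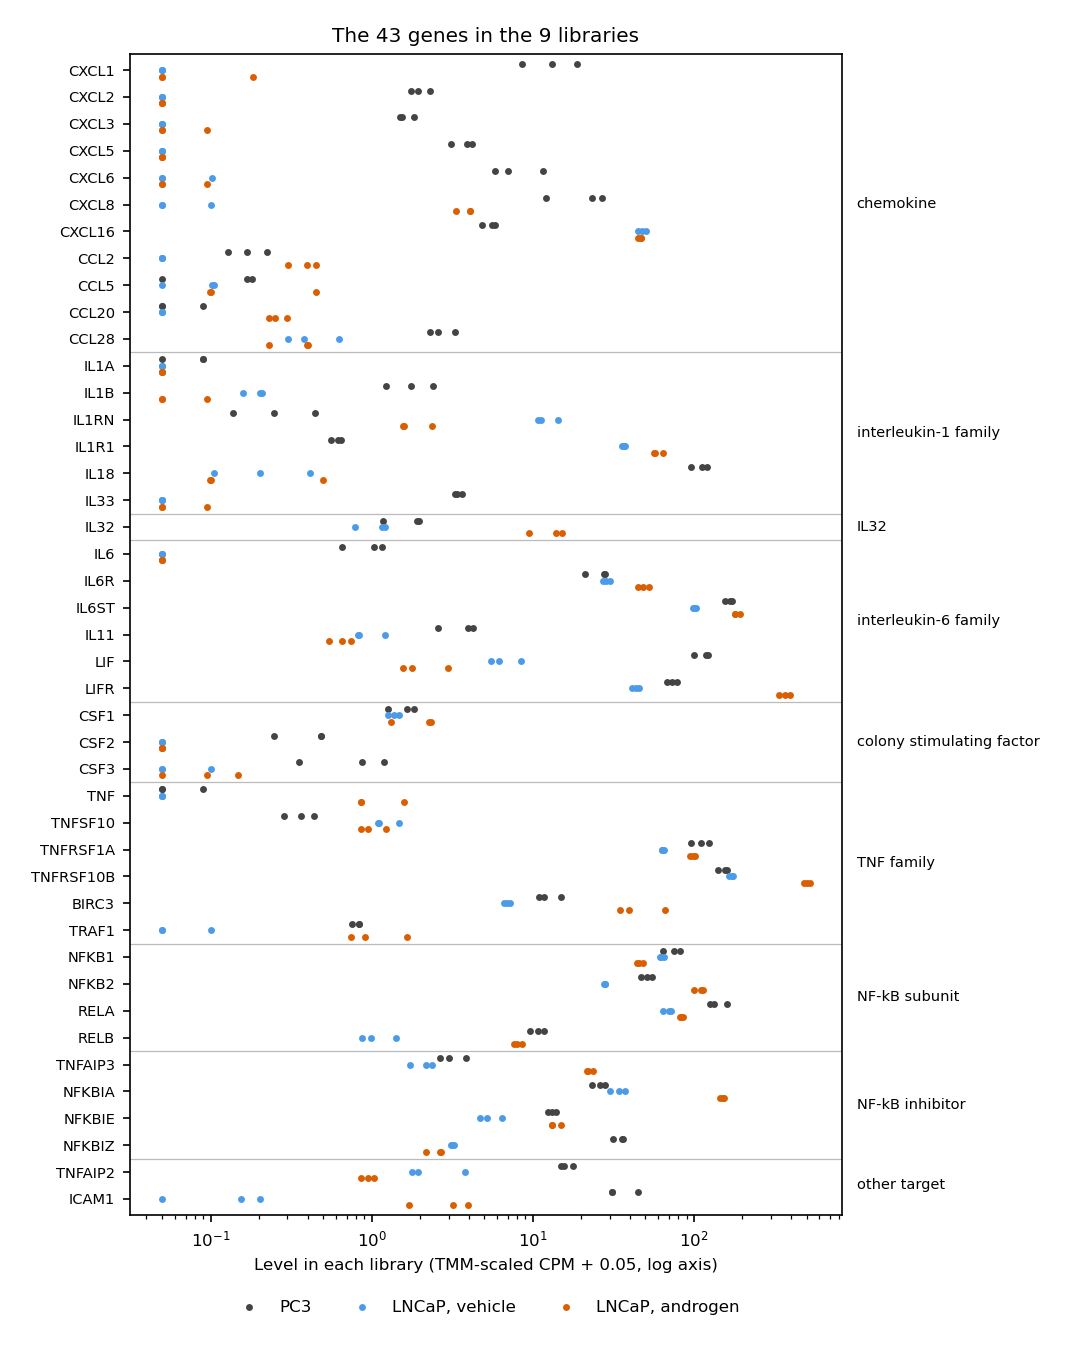
Level of each of the 43 genes in each of the 9 libraries, as TMM-scaled CPM plus 0.05 on a log axis, with genes grouped by role and 1 point per library. PC3 libraries (grey) lie apart at the right for CXCL1, IL18 and LIF, and androgen-treated LNCaP libraries (orange) lie apart at the right for LIFR, NFKBIA, TNFAIP3 and TNF.

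Of the 43 genes, 23 had their highest mean level in PC3 cells, 17 in androgen-treated LNCaP cells and 3 in vehicle-treated LNCaP cells. A gene was tested where more than 3 CPM were reached in at least 3 of the 6 libraries compared, and was called where it changed by 2-fold or more with an adjusted p-value under 0.05 in edgeR's quasi-likelihood F test. The filter left 27 genes with a test in at least 1 of the 3 comparisons and 16 with none (CXCL2, CXCL3, CCL2, CCL5, CCL20, CCL28, IL1A, IL1B, IL6, IL11, CSF1, CSF2, CSF3, TNF, TNFSF10 and TRAF1). For genes without a test, the ratio of the summed counts per summed depth is given with an exact 95% interval (Clopper-Pearson), which covers counting error only. Where one group had no count at all, the ratio is a lower bound against 3 counts over that group, also for genes that passed the filter. This bound takes the counts of the other group as exact, so it is not the limit of a 95% interval. With few counts in the other group, such a limit would be lower.

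The first comparison asked what 48 h of androgen did within LNCaP cells. Androgen-treated cells had more RNA of the NF-kB inhibitors NFKBIA, TNFAIP3 and NFKBIE and of the alternative subunits NFKB2 and RELB. They also had more of the apoptosis inhibitor BIRC3, of the chemokine CXCL8, of IL32 and of the receptors LIFR and TNFRSF10B. They had less of the interleukin-1 receptor antagonist IL1RN and of the ligand LIF. Of 20 genes tested, 10 were called higher and 2 lower, and the shares over all 11697 genes tested were 6.54% higher and 7.49% lower. The median log2 fold change was 1.11 over these 20 genes and -0.0068 over all genes. The first median includes 7 genes that were not above 3 CPM in all 6 libraries (CXCL8, IL1RN, IL32, LIF, TNFAIP3, NFKBIZ and RELB). Of these, 4 were called higher and 2 lower, and the filter favours large changes among them. A gene that passed the filter through 1 group alone is likely to differ, so the 13 genes with more than 3 CPM in all 6 libraries are given apart. Of these, 6 were called higher and 7 were not called, among them NFKB1, which fell by less than 2-fold. Over all 10910 genes that met this condition, 5.49% were called higher and 5.55% lower. Groups that do not overlap were common, since the 3 androgen-treated and 3 vehicle-treated libraries lay apart for 77.8% of all genes tested.

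NFKBIA encodes IkB-alpha, the inhibitor that NF-kB itself induces, and its level was 34.4, 30.3 and 37.1 CPM in the vehicle-treated libraries and 153, 151 and 145 CPM in the androgen-treated ones. Its log2 fold change was 2.14 ± 0.06 (SE, n = 3 in each group), with an edgeR adjusted p of 6.37e-12. TNFAIP3, which encodes the ubiquitin-editing protein A20 that switches off TNF signalling, was at 1.68, 2.30 and 2.13 CPM with vehicle and at 23.7, 22.1 and 21.8 CPM with androgen, a log2 fold change of 3.47 ± 0.12 with an edgeR adjusted p of 2.78e-11. Neither gene overlapped between the groups, and in both the androgen-treated libraries lay close to one another. NFKBIE, which encodes IkB-epsilon, stood at 6.40, 4.66 and 5.18 CPM against 14.9, 13.1 and 13.2 CPM and rose by 1.34 ± 0.12 on the log2 scale. NFKBIZ, an atypical nuclear IkB protein that acts as a coactivator, was the inhibitor-like gene that was not called: 3.09, 3.18 and 3.05 CPM with vehicle and 2.64, 2.12 and 2.62 CPM with androgen gave a log2 fold change of -0.33 ± 0.16 and an edgeR adjusted p of 0.0725.

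The 4 subunits differed among themselves. NFKB2 stood at 27.5, 28.2 and 28.1 CPM in the vehicle-treated libraries and at 111, 114 and 101 CPM in the androgen-treated ones, and its log2 fold change was 1.96 ± 0.06. RELB, its partner in the alternative branch, was at 0.944, 0.823 and 1.37 CPM and then at 7.92, 7.55 and 8.47 CPM, a log2 fold change of 2.92 ± 0.17. RELA and NFKB1, the subunits of the classical dimer, moved by less than 2-fold and in opposite directions. RELA was at 72.0, 63.9 and 69.7 CPM against 81.7, 83.2 and 85.7 CPM, with a log2 fold change of 0.29 ± 0.05 and an edgeR adjusted p of 0.000156. NFKB1 fell by 0.45 on the log2 scale (SE 0.05), from 65.3, 61.4 and 62.6 CPM to 47.9, 45.5 and 44.5 CPM, with an edgeR adjusted p of 2.95e-06.

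**Figure D2:**
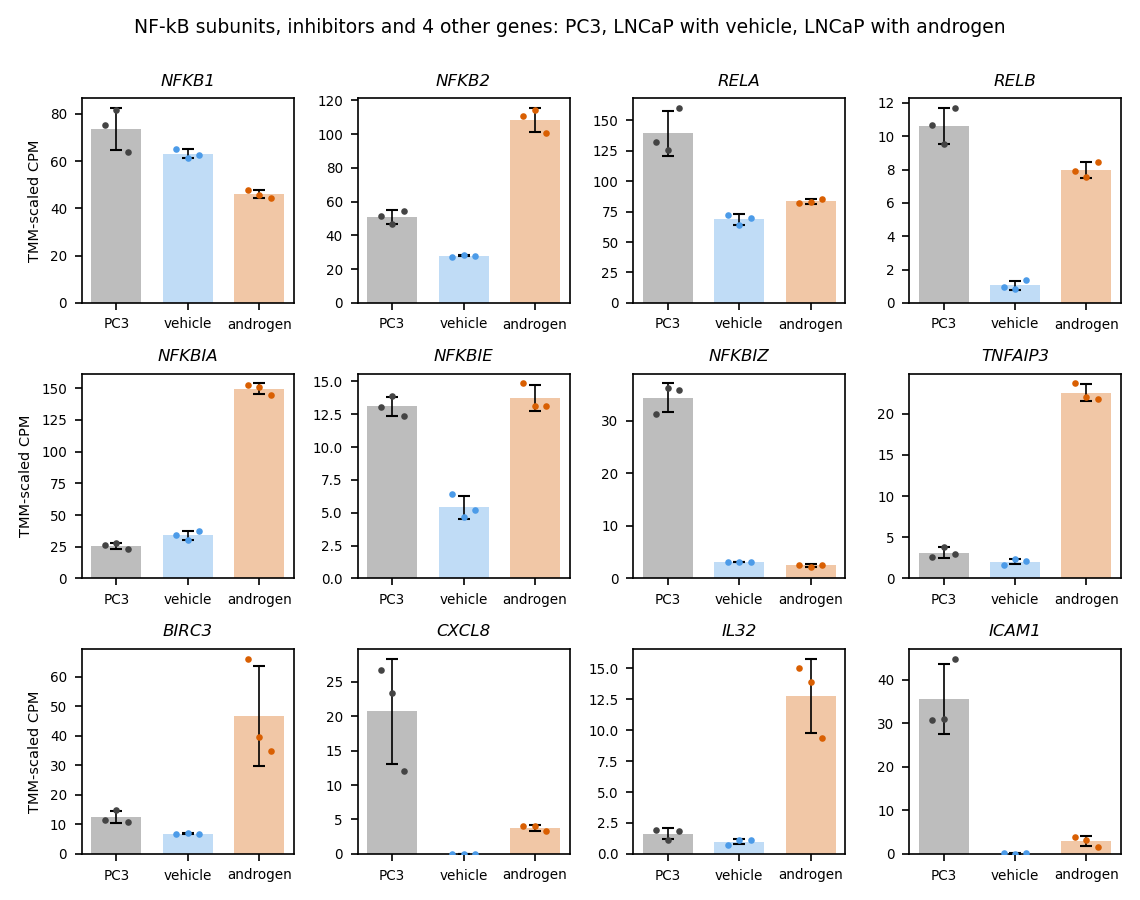
TMM-scaled CPM of the NF-kB subunits, the inhibitors and BIRC3, CXCL8, IL32 and ICAM1 in PC3, vehicle-treated and androgen-treated LNCaP cells, with bars for the mean, whiskers for the SD (n = 3) and 1 point per library, each panel with its own linear axis from 0. NFKBIA, TNFAIP3, NFKB2 and BIRC3 are highest in androgen-treated LNCaP cells, RELA, NFKBIZ, CXCL8 and ICAM1 in PC3 cells, and NFKB1 is lowest in androgen-treated LNCaP cells.

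The promoters of several of these genes are shown because NF-kB is known to act through short kB motifs near their starts. Promoters of 300 bases, 250 before and 50 after the start, were taken from RefSeq (GRCh38.p14) and were found for 33 of the 43 genes. The kB consensus was present, on either strand, in at least 1 promoter of 14 of the 33 genes (42.4%) and of 7.90% of the 18244 genes of the count table with a promoter there. Counted by promoter, this was 16 of 51 (31.4%) against 5.91% of all 35116 promoters of that length. The list holds known NF-kB targets by choice, so a larger share was likely beforehand and is not a result of these data. The stretches below, 5′ to 3′ on the strand of the gene, carry a match in capitals.

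NFKB2 (chr10:102395674-102395703, + strand): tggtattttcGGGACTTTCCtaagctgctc

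NFKBIA (chr14:35404786-35404865, - strand): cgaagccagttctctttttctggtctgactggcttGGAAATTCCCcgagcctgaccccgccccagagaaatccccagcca

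TNFAIP3 (chr6:137867182-137867211, + strand): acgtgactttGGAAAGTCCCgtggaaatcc

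BIRC3 (chr11:102317314-102317393, + strand): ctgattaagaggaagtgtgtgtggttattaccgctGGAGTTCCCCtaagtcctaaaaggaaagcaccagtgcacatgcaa

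IL32 (chr16:3065294-3065323, + strand): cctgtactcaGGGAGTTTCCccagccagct

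NFKB1 (chr4:102501300-102501329, + strand): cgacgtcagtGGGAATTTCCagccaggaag

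A match in these letters is a description of the reference sequence and not evidence of a bound site. It was present in NFKB2, NFKBIA, TNFAIP3, BIRC3 and IL32, which were called higher with androgen, and in NFKB1, which fell. The promoters of LIFR and CXCL8, also called higher, held no match, nor did those of IL1RN, called lower. For RELB, NFKBIE and TNFRSF10B, called higher too, no promoter was found. NFKBIZ, which was not called in this comparison, also held a match.

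Among the TNF family, BIRC3, an inhibitor of apoptosis that binds TNF receptor complexes, had 131, 131 and 130 counts with vehicle and 1477, 801 and 690 counts with androgen, or 6.87, 7.19 and 6.60 CPM against 66.1, 39.5 and 34.8 CPM. Its log2 fold change was 2.78 ± 0.23 (edgeR adjusted p 1.51e-07). Replicate 1 was the highest of the androgen-treated libraries, and each of them lay above each vehicle-treated one. TNFRSF10B, a death receptor for the ligand TRAIL, was at 175, 171 and 165 CPM with vehicle and 484, 525 and 500 CPM with androgen, and its log2 fold change was 1.56 ± 0.04. TNFRSF1A, the main TNF receptor, rose by less than 2-fold, from 65.2, 63.0 and 63.5 CPM to 99.3, 102 and 95 CPM, a log2 fold change of 0.63 ± 0.04 with an edgeR adjusted p of 3.12e-08.

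Both TNF itself and its adaptor TRAF1 lay below the filter. TNF had 0, 0 and 0 counts with vehicle and 18, 31 and 16 counts with androgen, so it was at least 19.8-fold higher (12.9-fold without vehicle-treated replicate 3), although its level with androgen was still only 0.806 to 1.53 CPM. TRAF1 had 0, 0 and 1 counts against 36, 14 and 17 counts, a ratio of 61.2 with a counting interval of 10.6 to 2451, or 40.7 without vehicle-treated replicate 1. TNFSF10, which encodes TRAIL, had 20, 26 and 21 counts with vehicle and 20, 24 and 16 with androgen, and the interval of the ratio, 0.567 to 1.176, included 1.

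CXCL8, the neutrophil chemokine also called interleukin-8, had 0, 0 and 1 counts in the vehicle-treated libraries and 90, 81 and 65 counts in the androgen-treated ones. The ratio of summed counts was 215, with a counting interval of 38.3 to 8544, and the edgeR adjusted p was 7.95e-09. The fitted log2 fold change of 7.31 ± 0.45 rests on that single count, since it became 9.24 without vehicle-treated replicate 3. IL32, a cytokine of lymphocytes and epithelia, stood at 0.734, 1.15 and 1.12 CPM with vehicle and at 15.0, 13.9 and 9.38 CPM with androgen, a log2 fold change of 3.67 ± 0.24 with an edgeR adjusted p of 1.31e-08. ICAM1, the adhesion molecule that leukocytes bind, was below the filter with 2, 0 and 3 counts against 87, 64 and 33 counts, and its ratio was 33.6 (counting interval 14.1 to 105), or 55.0 without vehicle-treated replicate 3.

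The levels of CXCL8 in the androgen-treated libraries were 15.8% to 19.5% of the PC3 mean and those of ICAM1 4.68% to 10.96%. The PC3 markers summed to 0.221% to 0.723% of their PC3 level in the LNCaP libraries, and the part of this in the counts of CXCL8 and ICAM1 was not tested. CXCL16, a chemokine that is also made as a membrane protein, was well expressed and did not pass the test, at 50.3, 47.3 and 44.9 CPM with vehicle and 46.6, 44.9 and 47.1 CPM with androgen (log2 fold change -0.04 ± 0.05, edgeR adjusted p 0.551).

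Other chemokines were at or near 0 in both LNCaP groups. CCL2, which attracts monocytes, had 0 counts in every vehicle-treated library and 9, 7 and 5 with androgen, at least 6.39-fold higher. CCL20, the ligand of CCR6, had 0 counts with vehicle and 4, 5 and 4 with androgen, at least 3.96-fold higher. CCL5, a T-cell chemokine, had 1, 1 and 0 counts with vehicle and 9, 1 and 1 with androgen, so that androgen-treated replicate 1 alone held most of its counts and the groups overlapped. CCL28, a mucosal chemokine, had 11, 6 and 5 counts against 4, 7 and 7, with a ratio interval of 0.378 to 1.46. CXCL1, CXCL2, CXCL3, CXCL5 and CXCL6 had at most 3 counts in either LNCaP group, and no ratio can be given.

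In the interleukin-1 family, IL1RN, which encodes the secreted antagonist that blocks the receptor, stood at 14.3, 10.7 and 11.1 CPM with vehicle and at 2.33, 1.53 and 1.51 CPM with androgen. Its log2 fold change was -2.73 ± 0.18, with an edgeR adjusted p of 1.69e-08. IL1R1, the signalling receptor, rose by less than 2-fold, from 35.5, 37.0 and 37.5 CPM to 56.2, 64.6 and 57.2 CPM (log2 fold change 0.70 ± 0.06, edgeR adjusted p 2.33e-07). The ligands were scarce in LNCaP cells. IL1B had 3, 2 and 3 counts with vehicle and 1, 0 and 0 with androgen, 8.76-fold lower with a counting interval of 1.17 to 389. IL18 had 7, 1 and 3 counts against 10, 1 and 1, IL33 0, 0 and 0 against 1, 0 and 0, and IL1A none in any LNCaP library. The single libraries with most IL18 counts, replicate 1 of each group, were also those with the highest PC3 marker level of their group, 0.482% with vehicle and 0.723% with androgen, and the part of this in the counts was not tested.

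Of 4 tested genes of the interleukin-6 family, 1 was called higher, 1 was called lower and 2 were not called. Over all genes tested in this comparison, 6.54% were called higher and 7.49% lower. LIF, leukaemia inhibitory factor, was at 8.44, 5.43 and 6.09 CPM with vehicle and at 2.91, 1.73 and 1.51 CPM with androgen, a log2 fold change of -1.68 ± 0.23 with an edgeR adjusted p of 2.37e-05. LIFR, its receptor, was at 43.6, 45.8 and 41.0 CPM against 339, 367 and 396 CPM, with a log2 fold change of 3.08 ± 0.06 and the smallest edgeR adjusted p of the 20 genes, 1.82e-13. IL6ST, which encodes gp130, the signalling chain that LIFR and the interleukin-6 receptor share, rose by 0.87 ± 0.04 on the log2 scale, from 101, 103 and 98.7 CPM to 194, 180 and 181 CPM, and so stayed under 2-fold.

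IL6R, the ligand-binding chain for interleukin-6, also rose by less than 2-fold, from 27.4, 28.5 and 30.2 CPM to 44.9, 48.2 and 52.4 CPM (log2 fold change 0.76 ± 0.06). IL6 itself had 0 counts in all 6 LNCaP libraries. IL11, a further ligand that signals through gp130, had 15, 14 and 23 counts with vehicle and 11, 14 and 12 with androgen, and the interval of the ratio, 0.414 to 1.01, included 1. LIF and LIFR did not overlap between the groups and moved in opposite directions.

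**Figure D3:**
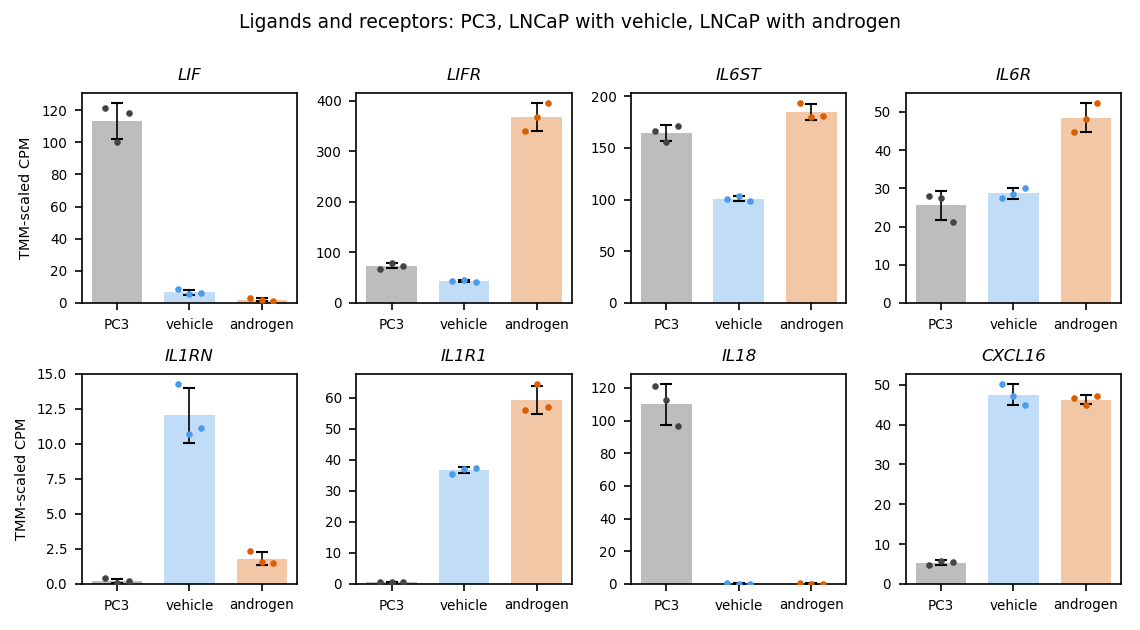
TMM-scaled CPM of ligands and receptors in PC3, vehicle-treated and androgen-treated LNCaP cells, with bars for the mean, whiskers for the SD (n = 3) and 1 point per library, each panel with its own linear axis from 0. LIF and IL18 are high in PC3 cells, LIFR is highest in androgen-treated LNCaP cells at 339 to 396 CPM, IL1RN is highest in vehicle-treated LNCaP cells, and IL1R1 and CXCL16 are low in PC3 cells.

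The remaining genes were below the filter. CSF1, the macrophage growth factor, had 23, 26 and 26 counts with vehicle and 51, 45 and 25 with androgen, a ratio of 1.47 (counting interval 1.1 to 1.99) with groups that overlapped. CSF2 had 0 counts in every LNCaP library, and CSF3 had 0, 0 and 1 against 1, 2 and 0. TNFAIP2, a gene first found as induced by TNF, had 33, 68 and 37 counts with vehicle and 20, 20 and 16 with androgen, which made it 2.7-fold lower, with a counting interval of 1.97 to 3.75.

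The other comparisons set PC3 cells beside each LNCaP group. They share the PC3 libraries, and the libraries of each LNCaP group also enter the first comparison, so the 3 comparisons are not independent. The values are given side by side. PC3 cells had more RNA of the CXCL chemokines of chromosome 4, of IL18, IL33 and LIF, and of NFKBIZ, TNFAIP2 and ICAM1 than either LNCaP group, and less of IL1R1 and CXCL16. Against androgen-treated cells, 10 of 26 genes tested were called higher in PC3 cells and 9 lower, where 24% of the 12541 genes tested were called higher and 22.1% lower. Against vehicle-treated cells, 13 of 25 were called higher and 3 lower, where the shares of 12686 genes were 22.2% and 21%. Calls between the lines were common among all genes, and the counts for these genes are to be read against those shares. The median log2 fold change was 0.29 against androgen-treated and 1.05 against vehicle-treated cells, and over all genes 0.036 and 0.026. The first 2 medians include 12 of the 26 and 11 of the 25 genes that were not above 3 CPM in all 6 libraries, where the filter favours large changes. Among the 14 genes above 3 CPM in all 6 libraries, 1 was higher and 6 lower against androgen-treated cells, and in the same number of genes 4 were higher and 1 lower against vehicle-treated cells. Over all genes that met this condition, 16.9% were higher and 17.9% lower against androgen-treated cells, and 16.1% and 15.6% against vehicle-treated cells. The PC3 libraries lay apart from the 3 androgen-treated ones for 86.4% of all genes tested and from the 3 vehicle-treated ones for 85.9%.

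**Figure D4:**
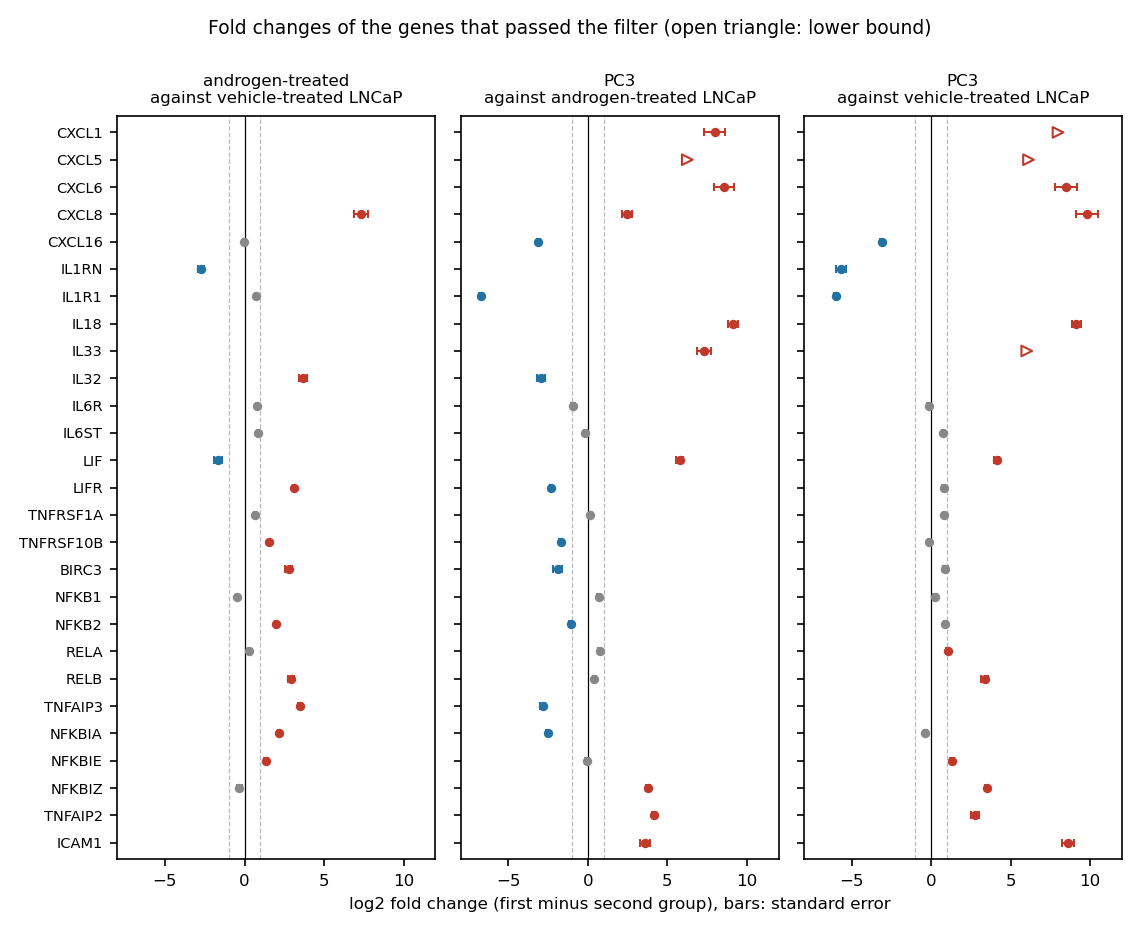
Log2 fold change (first minus second group named) with its standard error for the 27 genes that passed the filter in at least 1 comparison, in red where called higher, blue where called lower and grey where not called, with dashed lines at a 2-fold change. Open triangles are lower bounds for genes with 0 counts in the LNCaP group, and no symbol is drawn where a gene was below the filter. In the left panel CXCL8 lies farthest right and IL1RN farthest left, and in the middle panel IL18 and IL1R1 do.

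CXCL8, CXCL6, CXCL1, CXCL5, CXCL3 and CXCL2 lie in this order on chromosome 4 (GRCh38, from 73740519 to 74099196). They encode chemokines for neutrophils that bind the receptor CXCR2, and some of them also bind CXCR1. All 6 had counts in all 3 PC3 libraries. CXCL1 was at 13.0, 18.7 and 8.49 CPM there, CXCL8 at 26.7, 23.3 and 12.1 CPM, and CXCL6 at 7, 11.6 and 5.81 CPM. For these 3 genes PC3 replicate 3 was the lowest library. CXCL5 was at 3.86, 4.13 and 3.04 CPM, and replicate 3 was its lowest library too. CXCL2 was at 1.89, 1.70 and 2.25 CPM, and CXCL3 at 1.46, 1.78 and 1.5 CPM, where replicate 3 was not the lowest.

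Among these 6, CXCL8 alone had more than 3 counts in a LNCaP group. Its log2 fold change was 2.46 ± 0.31 against androgen-treated cells (edgeR adjusted p 0.000122), while against vehicle-treated cells, with 1 count in all, the ratio was 1175 (counting interval 211 to 46439). CXCL1 was 276 times higher against androgen-treated cells, where replicate 1, the library with the highest PC3 marker level, held all 3 counts (interval 94.0 to 1338), and at least 251-fold higher against vehicle-treated cells. CXCL6 had 1 count in each LNCaP group, in replicate 1, and its ratios were 500 (89.5 to 19801) and 457 (81.7 to 18075). CXCL5 had no count in LNCaP cells and was at least 76.2-fold and 69.6-fold higher. CXCL2 was at least 40.6-fold and 37.1-fold higher, and CXCL3, with 1 count in androgen-treated replicate 1, was 98.2 times higher (17.3 to 3913) and at least 29.9-fold higher.

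CXCL2 and CXCL3 are near copies in part, sharing 7.43% of the 74-base stretches of CXCL2 and 4.62% of those of CXCL3, so a few of their reads could be placed in either. 5 of the 6 genes held the same 10 bases within their promoters, shown in capitals below, and the window of CXCL8 held no match to the kB consensus. This says only that those letters are absent there.

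CXCL1 (chr4:73869279-73869358, + strand): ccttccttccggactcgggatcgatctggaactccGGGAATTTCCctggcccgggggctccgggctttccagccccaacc

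CXCL2 (chr4:74099229-74099308, - strand): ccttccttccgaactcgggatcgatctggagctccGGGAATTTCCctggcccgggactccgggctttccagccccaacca

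CXCL3 (chr4:74038749-74038778, - strand): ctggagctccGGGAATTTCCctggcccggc

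CXCL5 (chr4:73998724-73998803, - strand): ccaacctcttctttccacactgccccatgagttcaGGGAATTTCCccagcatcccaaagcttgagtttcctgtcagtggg

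CXCL6 (chr4:73836553-73836632, + strand): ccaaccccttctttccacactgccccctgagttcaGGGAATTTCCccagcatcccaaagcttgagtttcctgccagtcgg

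CXCL16 on chromosome 17 went the other way. It was at 4.76, 5.74 and 5.57 CPM in PC3 cells and at 44.9 to 50.3 CPM over the 6 LNCaP libraries, with log2 fold changes of -3.11 ± 0.10 and -3.12 ± 0.11. CCL28 had 64, 75 and 57 counts in PC3 cells and was 9.22 times higher than in androgen-treated cells (interval 5.68 to 15.9) and 6.89 times higher than in vehicle-treated cells (4.42 to 11.2). CCL2 had 3, 4 and 2 counts in PC3 cells, 2.76-fold below androgen-treated cells (1.21 to 6.83) and at least 2.32-fold above vehicle-treated ones. CCL20 had 0, 0 and 1 counts, 15.4-fold below androgen-treated cells (2.31 to 652), or 10.1-fold without PC3 replicate 1. CCL5 had 0, 3 and 3 counts, and its intervals included no change in both comparisons.

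IL18, a cytokine that epithelial cells store as a precursor, was at 121, 112 and 96.5 CPM in PC3 cells, per kilobase of exon the highest level of the 43 genes in that line at 42.2 ± 4.83 CPM per kb (SD, n = 3). It was 572 times higher than in androgen-treated cells (counting interval 327 to 1108) and 570 times higher than in vehicle-treated cells (318 to 1142), with edgeR adjusted p of 1.37e-07 and 4.59e-08. Since its counts in LNCaP cells lay mostly in replicate 1 of each group, the fitted log2 fold change moved from 9.13 to 10.98 without androgen-treated replicate 1, and from 9.14 to 9.98 without vehicle-treated replicate 1. In each LNCaP library the IL18 level was at most 0.407% of the PC3 mean, and the summed PC3 markers were at 0.221% to 0.723% there. The part of this in the IL18 counts was not tested.

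IL33, a nuclear cytokine released from damaged cells, was at 3.34, 3.61 and 3.24 CPM in PC3 cells, with a ratio of 212 against the single count of androgen-treated cells (37.7 to 8395) and a bound of at least 64.4-fold against vehicle-treated cells. IL1B had 30, 54 and 43 counts in PC3 cells, 108 times more than in androgen-treated cells (19.0 to 4281) and 12.3 times more than in vehicle-treated cells (6.04 to 29.0). IL1A had 1, 0 and 1 counts in PC3 cells and no ratio can be given.

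IL1R1 was at 0.512, 0.565 and 0.593 CPM in PC3 cells, giving log2 fold changes of -6.72 ± 0.12 against androgen-treated and -6 ± 0.11 against vehicle-treated cells. IL1RN had 10, 2 and 5 counts in PC3 cells, giving a log2 fold change of -5.65 ± 0.32 against vehicle-treated cells (-6.31 without PC3 replicate 1), and was 7.85-fold lower than in androgen-treated cells (4.69 to 13.9) without a test, or 12.5-fold without PC3 replicate 1. IL32 was at 1.93, 1.13 and 1.86 CPM in PC3 cells, giving a log2 fold change of -2.95 ± 0.26 against androgen-treated cells, and its ratio against vehicle-treated cells was 1.65 (1.20 to 2.31) with groups that overlapped.

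LIF was at 122, 100 and 118 CPM in PC3 cells, giving log2 fold changes of 5.77 ± 0.21 against androgen-treated and 4.11 ± 0.16 against vehicle-treated cells. LIFR was at 68.0, 78.1 and 73.5 CPM, which was lower than in androgen-treated cells (log2 fold change -2.32 ± 0.08) and higher, by under 2-fold, than in vehicle-treated cells (0.78 ± 0.08). IL6ST differed little from androgen-treated cells, at 166, 156 and 171 CPM (log2 fold change -0.17 ± 0.07, edgeR adjusted p 0.0469), and by 0.73 ± 0.06 from vehicle-treated cells. IL6R was at 28.1, 27.4 and 21.2 CPM in PC3 cells, giving log2 fold changes of -0.92 ± 0.12 and -0.14 ± 0.12, the second with an edgeR adjusted p of 0.317.

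IL6 had 28, 14 and 25 counts in PC3 cells, at least 18.9-fold and 17.3-fold higher than in androgen-treated and vehicle-treated cells. IL11 had 99, 58 and 106 counts, 6.02 times (4.26 to 8.74) and 3.91 times (2.89 to 5.37) higher. CSF2, with 11, 10 and 5 counts, was at least 7.34-fold and 6.70-fold higher, and CSF3, with 21, 7 and 29 counts, was 16.1 times (5.23 to 80.3) and 44.1 times (7.6 to 1770) higher. The first of these ratios rests on 1, 2 and 0 androgen-treated counts and was 32.6 without androgen-treated replicate 2, and the second was 29.3 without vehicle-treated replicate 1. CSF1, with 31, 37 and 45 counts, overlapped both LNCaP groups.

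Of the 6 genes of the TNF family, 3 were tested in PC3 cells. TNF, not tested, had 0, 0 and 1 counts there, 76.8-fold below androgen-treated cells (13.3 to 3078), or 50.3-fold without PC3 replicate 1. TNFSF10, with 6, 9 and 8 counts, was 3.08-fold (1.88 to 5.22) and 3.77-fold (2.32 to 6.34) lower. TNFRSF10B was at 161, 140 and 156 CPM, with log2 fold changes of -1.72 ± 0.07 against androgen-treated and -0.14 ± 0.07 against vehicle-treated cells.

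TNFRSF1A, at 110, 96.4 and 124 CPM, overlapped the androgen-treated libraries (log2 fold change 0.16 ± 0.09, edgeR adjusted p 0.125) and was 0.81 ± 0.09 above the vehicle-treated ones. BIRC3, at 11.6, 15.0 and 10.9 CPM, had log2 fold changes of -1.91 ± 0.27 and 0.89 ± 0.15. TRAF1, with 18, 18 and 20 counts, was 43.3 times higher than in vehicle-treated cells (7.46 to 1740), or 28.8 times without vehicle-treated replicate 1, and overlapped the androgen-treated libraries.

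Among subunits, RELA was at 132, 126 and 160 CPM in PC3 cells, giving log2 fold changes of 0.74 ± 0.09 and 1.05 ± 0.10. The second lay just over 2-fold, and it was 0.92 without PC3 replicate 3 and 0.99 without vehicle-treated replicate 2, both under the threshold. NFKB1 was at 75.4, 81.4 and 63.8 CPM, 0.68 ± 0.11 above androgen-treated and 0.25 ± 0.10 above vehicle-treated cells, the latter with an edgeR adjusted p of 0.0536. NFKB2, at 51.4, 46.6 and 54.7 CPM, lay between the LNCaP groups, with log2 fold changes of -1.09 ± 0.08 against androgen-treated and 0.89 ± 0.07 against vehicle-treated cells. RELB was at 10.7, 9.52 and 11.7 CPM, 0.42 ± 0.12 above androgen-treated and 3.35 ± 0.19 above vehicle-treated cells.

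Per kilobase of merged exons, where genes may be compared, RELA led the subunits in PC3 cells at 25.6 ± 3.37 CPM per kb (SD, n = 3), followed by NFKB2 at 9.12 ± 0.731, NFKB1 at 4.69 ± 0.573 and RELB at 3.55 ± 0.363. In vehicle-treated cells the order was RELA at 12.6 ± 0.770, NFKB2 at 5.00 ± 0.0675, NFKB1 at 4.02 ± 0.126 and RELB at 0.349 ± 0.0961 CPM per kb. In androgen-treated cells NFKB2, at 19.4 ± 1.27 CPM per kb, stood above RELA at 15.3 ± 0.369, and NFKB1 at 2.93 ± 0.113 and RELB at 2.66 ± 0.154 lay so close that their means ± SD nearly met. The merged exons of NFKB1 span 15.7 kb, more than those of the others, at 3.00 to 5.58 kb, which lowers its value on this scale.

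Of the genes grouped as inhibitors, the coactivator NFKBIZ alone was called higher in PC3 cells than in both LNCaP groups. NFKBIZ was at 31.2, 36.2 and 35.8 CPM, with log2 fold changes of 3.80 ± 0.13 against androgen-treated and 3.49 ± 0.11 against vehicle-treated cells. NFKBIA was at 26.1, 28.2 and 23.3 CPM, with log2 fold changes of -2.53 ± 0.09 and, under 2-fold, -0.37 ± 0.11. TNFAIP3 was at 2.60, 3.83 and 2.96 CPM, with a log2 fold change of -2.85 ± 0.16 against androgen-treated cells and, below the filter, a ratio of 1.53 (1.22 to 1.92) against vehicle-treated cells. NFKBIE was at 13.1, 13.9 and 12.4 CPM, overlapping the androgen-treated libraries (-0.06 ± 0.11, edgeR adjusted p 0.601) and higher than the vehicle-treated ones by 1.30 ± 0.14.

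Both remaining targets were high in PC3 cells. ICAM1 was at 30.8, 31.0 and 44.8 CPM, with a log2 fold change of 3.60 ± 0.29 against androgen-treated cells, and against the 5 counts of vehicle-treated cells its ratio was 406 (174 to 1253). The fitted log2 fold change there moved from 8.59 to 9.25 without vehicle-treated replicate 3. TNFAIP2 was at 15.5, 14.8 and 17.6 CPM, with log2 fold changes of 4.15 ± 0.15 and 2.74 ± 0.25. Neither gene overlapped between PC3 cells and a LNCaP group.

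Other genes of the pathway were taken from 3 lists. Of 36 genes of the NF-kB signalling chain (kinases, adaptors and further subunits and inhibitors), 35 were tested within LNCaP cells, where 5 were called higher with androgen and the others were not called, against 6.54% higher and 7.49% lower over all genes. The largest changes were those of MALT1, a protease of the signalling complex, with a log2 fold change of 1.95 ± 0.05, of TRADD, an adaptor of TNF receptors, with 1.49 ± 0.08, and of MAP3K14, the NIK kinase of the alternative branch, with 1.41 ± 0.09. The median of the list was 0.22, and that of all genes was -0.0068. In PC3 cells 5 of 36 genes were called higher and 6 lower against androgen-treated cells, and 11 higher and 2 lower against vehicle-treated cells, where the shares over all genes were 24% and 22.1%, and 22.2% and 21%.

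Of 26 further cytokine receptors, 6 were tested within LNCaP cells, and IL1RAP, the accessory chain that IL1R1 needs to signal, was the gene called, with a log2 fold change of -1.07 ± 0.09. Over all genes tested within LNCaP cells, 6.54% were called higher and 7.49% lower. Against either LNCaP group 9 receptors were tested, with 4 called higher in PC3 cells and 1 called lower. Over all genes tested, 24% were higher and 22.1% lower against androgen-treated cells, and 22.2% and 21% against vehicle-treated cells. Of the 5 receptors above 3 CPM in all 6 libraries 1 was called higher and 0 lower. Over all such genes, 16.9% were higher and 17.9% lower against androgen-treated cells, and 16.1% and 15.6% against vehicle-treated cells. IL1RL1, the receptor of IL33, had 4363 counts in PC3 cells against 3 and 4 in the LNCaP groups, and CD40 had 327 against 2 and 3. TNFRSF10D, a decoy receptor for TRAIL, was the one lower, with 6 counts against 3627 and 4960.

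Of 18 other known NF-kB targets, 7 were tested within LNCaP cells and 3 were called higher, namely KLF6 with a log2 fold change of 1.93 ± 0.09, GADD45B with 1.36 ± 0.12 and BCL2L1 with 1.07 ± 0.05. The shares over all genes tested there were 6.54% higher and 7.49% lower. In PC3 cells 6 of 9 targets were called higher and 1 lower against each LNCaP group, and PLAU, one of the higher, is also a PC3 marker here. Over all genes tested, 24% were higher and 22.1% lower against androgen-treated cells, and 22.2% and 21% against vehicle-treated cells. The target called lower was ZC3H12A, which encodes an RNase that degrades cytokine transcripts, against androgen-treated cells at -2.85 ± 0.10. Among the 7 of these genes above 3 CPM in all 6 libraries, 4 were called higher and 1 lower against each LNCaP group, where 16.9% and 16.1% of all such genes were higher and 17.9% and 15.6% lower. The median log2 fold change of these 7 was 1.48 against androgen-treated and 1.15 against vehicle-treated cells, where that of all such genes was -0.0152 and 0.0159. Within LNCaP cells the median of the 7 genes was 0.72 with androgen and that of all such genes 0.0071.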

How the data were processed

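Counts of reads per gene were used from 9 libraries. The authors deposited these counts, whole numbers without normalization, in 1 table and in the STAR output of each library, and all 253944 values of the table equalled the forward-strand column of that output. The submitters' processing notes name cutadapt 4.1, STAR 2.7.7a, UMI-tools 1.1.2 and GRCh38. The study's methods name other versions of cutadapt and STAR, and which of them made the deposited counts is not known. According to those methods, reads were trimmed, aligned, deduplicated by molecular identifier and aligned again. 0 columns were left out. Depth ranged from 17397706 to 25640325 counts on genes, and a count of 0 allows up to 3 counts.

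TMM factors and the quasi-likelihood F test of edgeR 4.0.16 (R 4.3.3) were computed in each pair of groups, on genes with more than 3 CPM in at least 3 of 6 libraries, with Benjamini-Hochberg adjustment over all genes tested. The study used a likelihood ratio test with a term for batch. No source names the batches, so that test was an alternative without the term and, separately, with the replicate number as a block. The standard error is the log2 fold change divided by the square root of F. TMM would not show a shift shared by most genes.

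The 43 genes, the other lists and the tests were chosen with earlier results of these data known. All 43 genes are given, and of each other list at most the 3 called genes with the largest change are named. HOXB13 and PLAU were singled out after their values were seen. Gene positions and merged exons come from GENCODE 44 on GRCh38, and 25696 of the symbols in the table were found there. The kB consensus was searched on both strands of RefSeq promoters. No promoter was matched for CXCL16, CCL2, CCL5, IL18, LIF, CSF1, CSF3, TNFRSF10B, NFKBIE and RELB.

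Replicate numbers are shared by the groups. Over 11697 genes, deviations of same-numbered androgen-treated and vehicle-treated libraries correlated with 0.193, 0.216 and 0.199. Those of different numbers correlated with -0.219 to 0.0167. Same-numbered LNCaP libraries thus tended to vary together, although no label says that they are paired. The standard errors and adjusted p-values given above come from the fit without a replicate block. The alternatives were DESeq2 1.42.0 size factors and Wald test, the likelihood ratio test with and without the replicate block, the quasi-likelihood test with it, no filter, calls on the adjusted p-value alone, a minimum of 10 counts in every library, all 9 libraries in one fit, unstranded counts and leaving out each library after filtering.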

Additional observations from a re-analysis of the deposited data

How the results depend on the processing

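Within LNCaP cells 9 to 15 genes were called higher (10 in the main test) and 2 to 3 lower (2) over the alternatives. On the adjusted p-value alone, 17 further log2 fold changes under 2-fold passed over the 3 comparisons. With no filter on low counts, more genes could be called: 18 higher and 14 lower against androgen-treated cells in place of 10 and 9, and 23 higher against vehicle-treated cells in place of 13. With at least 10 counts in every library, genes near 0 in LNCaP cells were no longer tested, and 6 and 7 were called higher. Leaving out 1 library gave 10 and 9 against androgen-treated cells, 10 and 2 with androgen, and 12 to 13 and 3 against vehicle-treated cells. The lower count came from RELA. The log2 fold change turned from -0.06 to 0.014 for NFKBIE against androgen-treated cells without androgen-treated replicate 1, and from -0.04 to 0.0078 for CXCL16 with androgen without vehicle-treated replicate 1, while without other libraries they reached -0.11 and -0.076 (NFKBIE without PC3 replicate 2, CXCL16 without vehicle-treated replicate 3), and neither was called. For CXCL1, CXCL6 and IL33 against androgen-treated cells the fitted value became 11.26, 10.54 and 9.28 without androgen-treated replicate 1, which held all their counts in that group. The ratio of CCL5 there moved from 0.462 to 1.63 without the same library. Bounds fall when a library of the group at 0 is left out, since its depth is then missing: for TNF with androgen the bound fell from 19.8 to 12.9, and bounds of CXCL2, CXCL3, CCL2, CCL20, IL6 and CSF2 fell by 1.5 to 1.56 times.

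With the replicate number as a block, 10 genes were called higher and 2 lower with androgen, 10 and 9 against androgen-treated cells and 13 and 3 against vehicle-treated cells, and no call of a member changed, nor did one under the likelihood ratio test with that block. Between PC3 and LNCaP libraries of the same number the correlations were between -0.0917 and 0.0335, so no such likeness was seen between the lines.

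The shallow vehicle-treated libraries limit what can be said of genes at 0 there: 3 counts over the group stand for 0.0526 CPM. Cell line and medium cannot be told apart. Counts of called genes rest on the filter wherever a gene is near 0 in 1 group.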
